A study of Mus musculus with 4 samples.

Results

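The genes described here encode the proteins of the cytosolic ribosome. They were taken from the count table by gene symbol: Rpl or Rps with a number and, for some, a letter, together with Rpsa and the stalk genes Rplp0, Rplp1 and Rplp2. The rule matched 89 of the 29247 genes counted. The 5 that are annotated as pseudogenes were left out, and Rps6kl1, a kinase-like gene that is no ribosomal protein, was set aside. The remaining 83 genes comprise 31 of the small subunit, 43 of the large subunit, 3 of the acidic stalk and 6 paralogs, which are related copies of a standard ribosomal protein gene.

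Messenger RNA was sequenced from macrophages sorted by flow cytometry from livers of C57BL6J mice aged 8 weeks. The treated group holds 3 libraries of Cxcr4+ macrophages collected 72 h after acetaminophen (APAP, a painkiller whose overdose destroys liver cells), given intraperitoneally in saline at 300 mg/kg. The other group is 1 library of control macrophages, for which the labels give no injection and no Cxcr4 gate, so APAP and the Cxcr4+ sort cannot be told apart. Nothing in the labels ties the treated libraries to different mice, so the p-values rest on a spread between libraries that may be technical.

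The cytosolic ribosome has a small subunit, which reads the messenger RNA, and a large subunit, which joins amino acids. Nearly every ribosomal protein is present once per ribosome. The stalk is an exception: it is built from Rplp0 and dimers of Rplp1 and Rplp2, and it recruits the translation factors that hydrolyse GTP. The messenger RNAs of these proteins begin with a run of pyrimidines, the terminal oligopyrimidine (TOP) motif, through which mTORC1 and the RNA-binding protein Larp1 control their translation. In liver the tissue macrophages are Kupffer cells, and monocytes from blood join them after injury.

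Total counts lay between 48282283 and 56702837 per library. Levels are given in CPM, a gene's counts relative to the size of its library, with sizes adjusted by the trimmed mean method (TMM). The TMM factors were 1.03 to 1.04 after APAP and 0.90 for the control. All 10 macrophage markers were detected in every library, at a summed 18150 to 21650 CPM after APAP and 28860 CPM in the control. The 10 Kupffer cell markers summed to 13180 to 17380 CPM against 34640 CPM. The 12 hepatocyte markers summed to 1477 to 2394 CPM against 3703 CPM, and 9 were lower. Most of that sum was Trf, at 1109 to 1877 CPM against 2679 CPM. B cell markers were higher in all 10 genes (415 to 628 CPM against 71.9 CPM, with Cr2 at 0 counts in the control), and T cell markers in 8 of 10 (116 to 151 CPM against 57.7 CPM). Of all genes tested 25.4% were higher and 18.9% lower by the test described below. Among the other lists, NK cell markers summed to 31.8 to 46.6 CPM against 14.0 CPM, neutrophil markers to 213 to 394 CPM against 156 CPM (Ly6g, Camp and Ltf at 0 counts in the control), and endothelial markers to 936 to 1346 CPM against 1948 CPM. Of the 8 endothelial markers 4 were lower and 2, Kdr and Ptprb, were higher, while Cdh5 alone held 1268 CPM in the control. Plasmacytoid dendritic cell markers were higher in 6 of 8 genes (Siglech at 0 counts in the control), while their sum, 305 to 332 CPM against 382 CPM, rests mostly on Bst2, the 1 that was lower (108 to 129 CPM against 288 CPM). These marker levels differed between the same APAP libraries and control that give every ribosomal protein result below. Their part in those results was not tested. In bulk libraries a change in the mixture of cells cannot be told apart from a change of RNA within each cell.

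Ribosomal protein messenger RNA took a smaller share of the APAP Cxcr4+ libraries than of the control. The 83 genes held 2.61%, 2.68% and 2.59% of all counts after APAP and 3.55% in the control. The mean after APAP was 2.63% ± 0.05 (SD, n = 3), which is 73.9% of the control share. The 95% Clopper-Pearson half-width was at most 0.0051 percentage points, and this covers counting error only. With 3 libraries against 1, an exact permutation test cannot give a one-sided p under 0.25, so the shares were not tested. Mitochondrially encoded genes also took less, 1.99% to 2.33% against 2.91%, and with them out of the total the share stood at 73.4% of the control. All these shares are of raw totals. In CPM, which use the TMM sizes, the members summed to 25010 to 25980 after APAP and 39490 in the control. The fold changes below are on the TMM scale, so they show a larger decrease than the shares.

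The decrease was not even between the parts of the ribosome. The small subunit share was 70.5% of its control value, the large subunit share 78.7%, the stalk 67.6% and the paralogs 73.1%. Within the ribosomal protein counts, the small subunit made up 42.6% to 42.8% of the APAP libraries and 44.8% of the control. The large subunit made up 48.3% to 48.5% after APAP and 45.4% in the control. In both shares the 3 APAP libraries lay close together and the control stood apart from them.

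**Figure D1:**
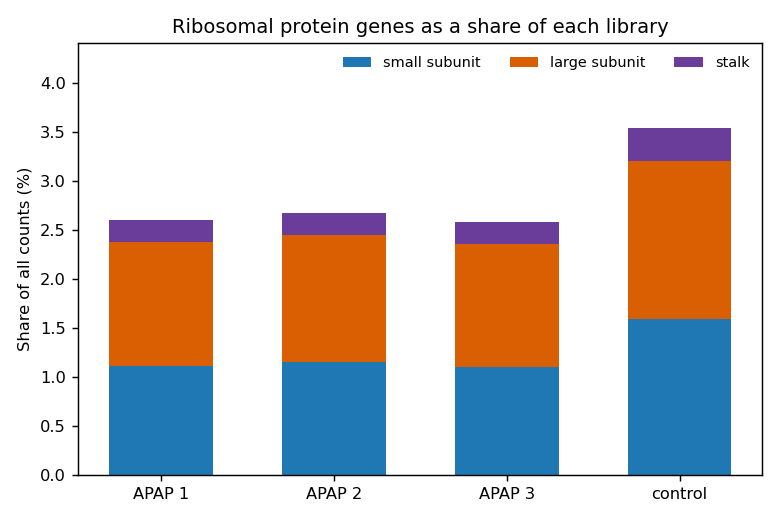
Counts of small subunit, large subunit and stalk genes as a percentage of all counts, 1 stacked bar per library (vertical axis in percent, from 0). Paralogs are not drawn, since they hold at most 0.0141% of a library. The 3 APAP bars are alike and all are shorter than the control bar.

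Gene by gene, 70 of the 82 ribosomal protein genes tested were lower in APAP Cxcr4+ macrophages and 0 were higher (edgeR quasi-likelihood test, Benjamini-Hochberg adjusted p under 0.05 over 18715 genes). Over all genes tested, 18.9% were called lower and 25.4% higher. Their median log2 fold change was -0.64, beside 0.08 over all genes. The quartiles were -0.81 and -0.51, and 81 of 82 values lay below 0. No member was higher at an unadjusted p under 0.05 either, and DESeq2 and limma-voom also called 0 higher. DESeq2 called 69 lower (15.7% of all genes it gave an adjusted p) and limma-voom 71 (19.5% of all genes). Against a minimum log2 fold change of 0.5 (glmTreat), 30 were lower, beside 7.99% of all genes. Short transcripts of other coding genes were lower as well, and with their trend over length and GC content taken off, 26 members were lower and 1 was higher, as described with protein size below.

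The size of the decrease was moderate, and only 6 genes were both called and at least 2-fold lower. In 80 of the 82 genes the control lay above all 3 APAP libraries, which held for 39.2% of all genes. Rpl4 and Rps10 were the exceptions, with the control inside the APAP range. Set against the control one at a time, the APAP libraries gave median log2 ratios of -0.67, -0.62 and -0.66. The 75 members with at least 50 CPM varied little among the APAP libraries, with a median coefficient of variation of 3.29%, from 0.74% for Rpl34 to 14.0% for Rps2. The median for all 3834 genes of that abundance was 5.62%. Spread in the control is unknown, because it has 1 library, and the fit assumes that it varies like the APAP group (residual degrees of freedom 2, prior degrees of freedom 3.80).

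**Figure D2:**
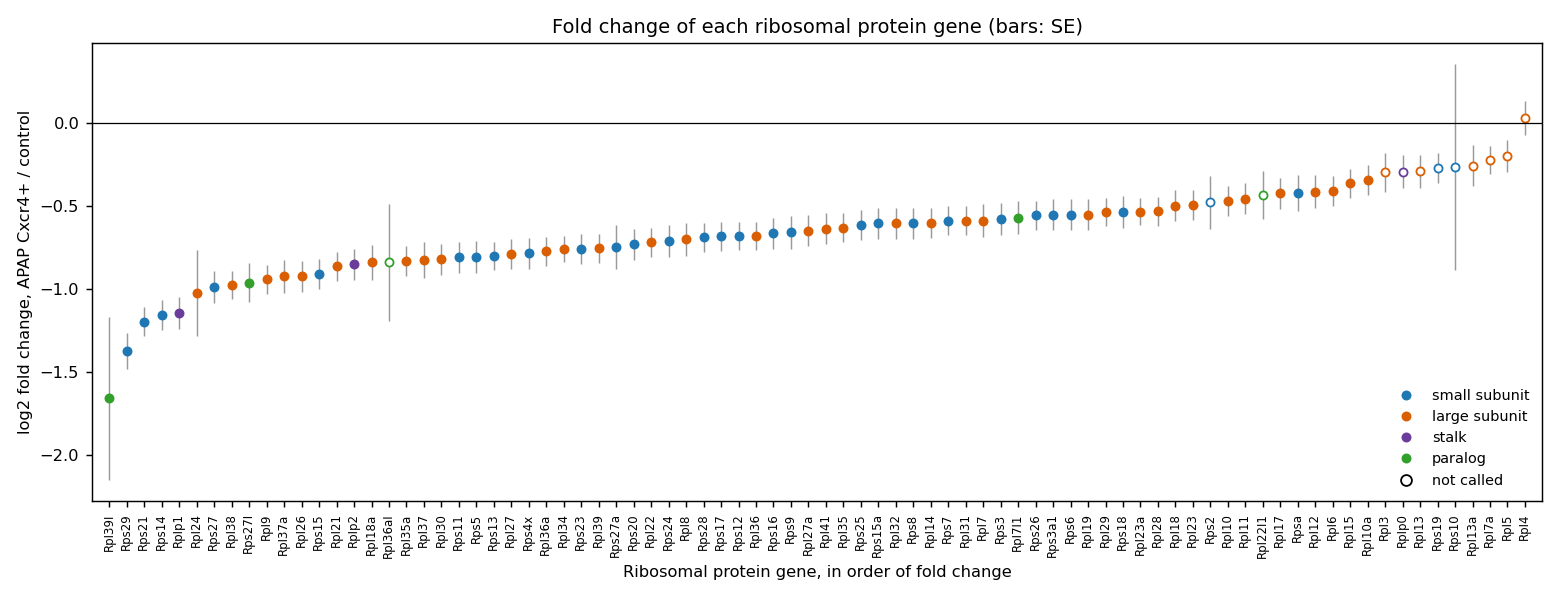
Log2 fold change of the 82 tested genes, APAP Cxcr4+ over control, in rising order, with the standard error as a bar; colours give the part of the ribosome and open circles the 12 genes that were not called. Values run from -1.66 for Rpl39l to 0.03 for Rpl4, and every other gene lies below 0.

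Of the 31 small subunit genes 28 were lower, with a median log2 fold change of -0.68. Rps29, a small zinc-binding protein of the subunit head, stood at 426, 463 and 485 CPM after APAP and 1188 CPM in the control. The APAP mean was 38.6% of the control level, and the log2 fold change was -1.37 (SE 0.11, adjusted p = 0.0011). Rps21, another small protein of the subunit, was at 146, 158 and 155 CPM against 350 CPM (-1.20, SE 0.09, adjusted p = 0.00107). Rps14, the protein whose loss causes the anaemia of the 5q deletion syndrome, was at 251, 269 and 267 CPM against 585 CPM (-1.16, SE 0.09, adjusted p = 0.00112). In all 3 genes the spread among APAP libraries was a small fraction of the distance to the control.

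Other small subunit genes of known roles fell less. Rps6, the substrate of the S6 kinases, was at 438, 450 and 423 CPM against 641 CPM (log2 fold change -0.55, SE 0.09, adjusted p = 0.00673). Rps9, one of the proteins that assemble early, was at 659, 697 and 706 CPM against 1086 CPM (-0.66, SE 0.10, adjusted p = 0.00474). Rpsa, also known as a laminin receptor, was at 912, 959 and 868 CPM against 1224 CPM (-0.42, SE 0.11, adjusted p = 0.0249). The Rpsa call was lost when the second APAP library was left out (adjusted p = 0.0899) and when the third was (adjusted p = 0.0726). In each gene of this paragraph the control lay above all 3 APAP libraries, which held for 39.2% of all genes.

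The small subunit genes that were not called were Rps2, Rps10 and Rps19. Rps19, the gene most often mutated in Diamond-Blackfan anaemia, was at 225, 225 and 212 CPM against 267 CPM (log2 fold change -0.27, SE 0.09, adjusted p = 0.0544). When the first APAP library was left out Rps19 passed the test (-0.29, adjusted p = 0.0165). Rps2, a protein of the messenger RNA entry channel that was picked after its values were seen, varied most among the abundant members, at 583, 513 and 440 CPM against 714 CPM (-0.48, adjusted p = 0.0572). Rps10 had almost no counts of its own and is taken up with the pseudogenes below.

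Of the 43 large subunit genes 37 were lower, with a median of -0.60. The 3 genes nearest the median of all members belong here. Rpl27a was at 502, 517 and 514 CPM against 801 CPM (log2 fold change -0.65, SE 0.09). Rpl41, which encodes a peptide of 25 residues that bridges the subunits, was at 444, 463 and 450 CPM against 704 CPM (-0.64, SE 0.09). Rpl35, found beside the exit of the peptide tunnel, was at 158, 165 and 156 CPM against 247 CPM (-0.63, SE 0.09). All 3 were called in edgeR (adjusted p = 0.00391, 0.0041 and 0.00355). Exons annotated on the opposite strand cover 71.2% of the Rpl35 exon bases. The strand setting of the counting is not given, so the Rpl35 counts may include reads from that strand. The same holds, for 20.4% to 59.7% of exon bases, for Rpl5, Rpl23a, Rpl30, Rpl31 and Rps25.

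The largest ribosomal protein, Rpl4, lines the peptide tunnel and did not follow the others. It was at 785, 799 and 756 CPM after APAP and 764 CPM in the control, so the control lay between the APAP values. Its log2 fold change was 0.03 (SE 0.10, adjusted p = 0.829). Rpl4 was among the 5 most abundant members, with Rplp0, Rpsa, Rplp1 and Rps9.

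The other large subunit genes that were not called stand next to Rpl4 at the upper end. Rpl5, which carries the small 5S ribosomal RNA into the large subunit, was at 424, 460 and 441 CPM against 507 CPM (log2 fold change -0.20, SE 0.10, adjusted p = 0.145). Rpl7a was at 193, 196 and 194 CPM against 227 CPM (-0.23, SE 0.08, adjusted p = 0.0737), and it passed the test with the first APAP library left out (-0.22, adjusted p = 0.0318). Rpl13a, known also from a complex that represses translation in interferon-treated myeloid cells, was at 19.0, 20.9 and 18.9 CPM against 23.4 CPM (-0.26, SE 0.12, adjusted p = 0.134). Rpl3, of the peptidyl transferase centre, was picked after its values were seen: it was at 604, 581 and 525 CPM against 701 CPM (-0.30, SE 0.12, adjusted p = 0.0831). Rpl13, picked in the same way, was at 501, 511 and 478 CPM against 609 CPM (-0.29, SE 0.10, adjusted p = 0.0535). In each of these the control was still the highest of the 4 libraries, as it was in 39.2% of all genes.

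Rpl5 and Rpl11 bind the 5S RNA together and, outside the ribosome, inhibit Mdm2, the ligase that degrades p53. Rpl11 was at 461, 476 and 464 CPM against 641 CPM (log2 fold change -0.46, SE 0.09, adjusted p = 0.0115). Without the second APAP library the Rpl11 call was lost (adjusted p = 0.0698). Of the 5 members in the list of Mdm2-binding ribosomal proteins 4 were lower, Rpl11 with Rps27 (-0.99), Rps7 (-0.59) and Rpl23 (-0.49). Rpl5 was the one not called, and 24.3% of its exon bases are shared with exons on the other strand.

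**Figure D3:**
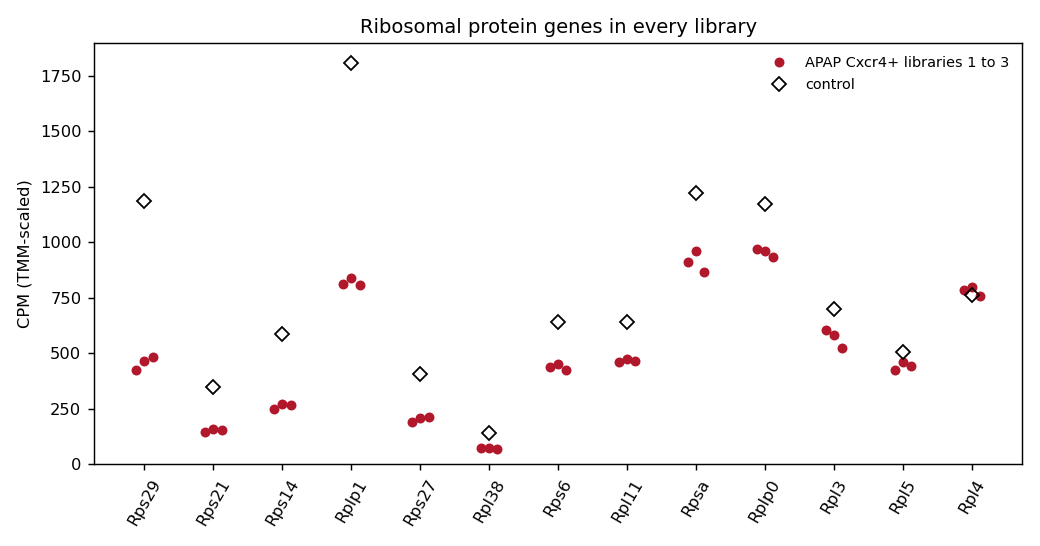
Level of 13 ribosomal protein genes in each library (vertical axis in TMM-scaled CPM, from 0): filled circles are APAP Cxcr4+ libraries 1 to 3 and the open diamond is the control. The circles of a gene lie close together; the diamond is far above them for Rps29 (1188 CPM) and Rplp1 (1809 CPM) and among them for Rpl4 (764 CPM).

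The stalk proteins differed among themselves. Rplp1 was the most abundant member in the control, at 1809 CPM, and stood at 811, 839 and 810 CPM after APAP (log2 fold change -1.14, SE 0.10, adjusted p = 0.00122). Its dimer partner Rplp2 was at 414, 417 and 395 CPM against 737 CPM (-0.85, SE 0.09, adjusted p = 0.00199). Rplp0, the base on which both are mounted, was at 969, 962 and 935 CPM against 1171 CPM (-0.29, SE 0.10, adjusted p = 0.0578). Per kilobase of transcript the control held 3625 CPM of Rplp1, 765 CPM of Rplp2 and 862 CPM of Rplp0, and the APAP means were 1643, 424 and 703 CPM. Rplp0 lies near the threshold: it was called with the first APAP library left out (-0.31, adjusted p = 0.0221) and by limma-voom (adjusted p = 0.0472).

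Of the 6 paralogs 5 passed the count filter and 3 were lower. Rpl39l, a paralog of the tunnel protein Rpl39 that is best known from the testis, had the most negative fold change of all members at very low levels. It stood at 0.358, 0.80 and 0.444 CPM against 1.69 CPM, from 18 to 76 counts (log2 fold change -1.66, SE 0.49, adjusted p = 0.0388). The DESeq2 Wald test did not call Rpl39l (adjusted p = 0.059). Rps27l, a p53 target related to Rps27, was at 22.5, 19.9 and 22.6 CPM against 42.2 CPM (-0.96, SE 0.12, adjusted p = 0.00265).

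The other paralogs had smaller fold changes. Rpl7l1, which acts in the assembly of the large subunit, was at 62.6, 56.8 and 56.7 CPM against 87.1 CPM (log2 fold change -0.57, SE 0.10, adjusted p = 0.00703). Rpl22l1 was at 17.7, 18.7 and 15.5 CPM against 23.3 CPM (-0.43, SE 0.14, adjusted p = 0.0555), and it was called with the first APAP library left out (-0.45, adjusted p = 0.0407). Rpl36al was at 1.23, 1.17 and 1.88 CPM against 2.56 CPM (-0.84, SE 0.35, adjusted p = 0.101), and it was called with the third APAP library left out (-1.07, adjusted p = 0.0347). Rpl3l, a heart and skeletal muscle form of Rpl3, had 3 to 10 counts in a library and was not tested.

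The counts of each paralog were also set against those of its standard gene. Per 100 counts of Rps27 there were 11.8, 9.44 and 10.7 counts of Rps27l after APAP and 10.4 in the control, so the control fell within the APAP range. Per 100 counts of Rpl7 there were 14.8, 12.4 and 12.3 counts of Rpl7l1 and 13.0 in the control, again inside the range. Rpl22l1 gave 13.5, 13.5 and 11.1 per 100 counts of Rpl22 against 10.4, with all APAP libraries above the control. Rpl39l gave 0.386, 0.818 and 0.489 per 100 counts of Rpl39 against 1.07, with all below it. Rps4l, annotated as a pseudogene and so not among the members, gave 3.30, 2.46 and 2.41 per 100 counts of Rps4x against 4.51, and its log2 fold change was -1.52 (SE 0.18, adjusted p = 0.00231). None of these ratios was tested.

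The size of the decrease followed the size of the encoded protein. The 11 members under 100 residues were all called lower and had a median log2 fold change of -0.96. Of the 48 with 100 to 199 residues 44 were lower (median -0.68), and of the 23 with 200 or more 15 were lower (median -0.47). Across the 82 genes, Spearman's rho between residues and log2 fold change was 0.627, and it was 0.615 for the 77 genes that are not paralogs. Each APAP library alone against the control gave 0.569 to 0.634 over the same genes, whereas pairs of APAP libraries gave 0.201 to 0.306. These coefficients describe genes that share the same 4 libraries, and all comparisons with the control share that 1 library. Over 14256 tested coding genes rho was 0.318.

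**Figure D4:**
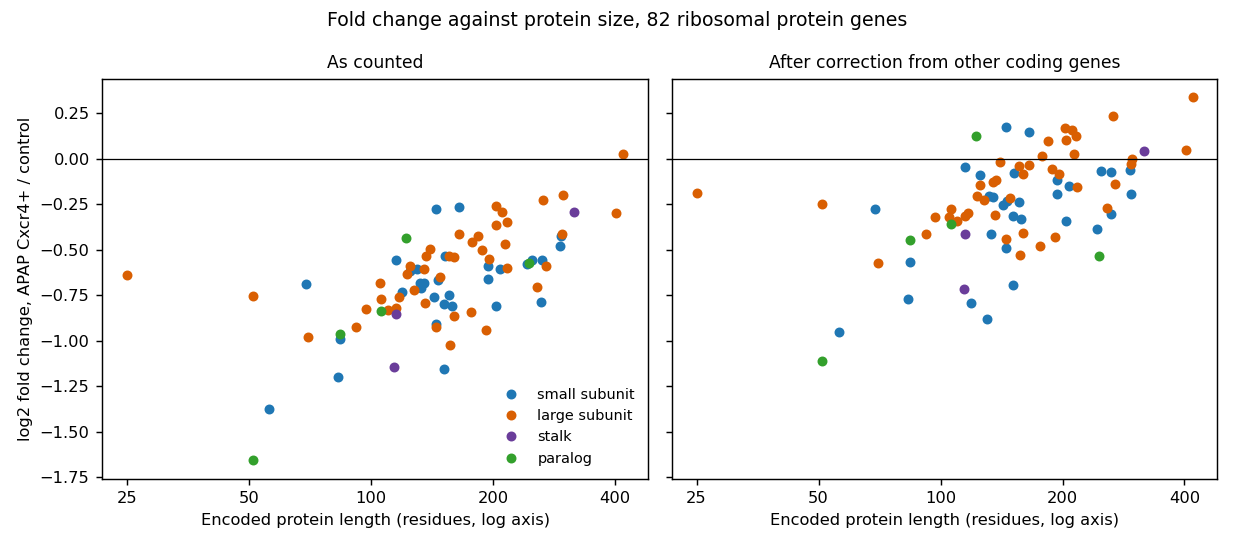
Log2 fold change of each of the 82 genes against the length of its protein in residues (log axis), as counted on the left and after the length and GC correction from other coding genes on the right; colours give the part of the ribosome. The points move up towards 0 with the correction (median -0.64 to -0.21), and smaller proteins lie lower in both panels (Spearman's rho 0.627 and 0.537).

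Small proteins have short transcripts, and short transcripts of other genes were lower as well. In transcripts of 500 to 1000 bases, the 48 members had a median log2 fold change of -0.62 and the 865 other coding genes -0.72. Under 500 bases the medians were -0.80 for 14 members and -0.68 for 118 other genes. From 1000 to 2000 bases they were -0.51 for 16 members and -0.32 for 3315 other genes, and from 2000 bases on -0.59 for 4 members and 0.23 for 9647 others. At 500 to 1000 bases, the lengths that hold most members, their median was thus not below that of other coding genes. The share of genes called lower was 85.4% of members and 52.1% of other genes at 500 to 1000 bases.

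Corrections for transcript length and GC content changed the counts, by an amount that depended on the genes used to fit the trend. With the trend fitted on all genes tested, 54 members were lower and 0 higher, against 17.4% and 21.3% of all genes, and the median was -0.55 (0.05 over all genes). This correction left much of the trend among other coding genes, whose medians were still -0.83 under 500 bases, -0.49 at 500 to 1000, -0.13 at 1000 to 2000 and 0.11 above. A correction fitted on the coding genes outside the members was therefore added after seeing the data. It brought those medians to -0.24, -0.24, -0.04 and 0.07.

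With the correction from other coding genes, 26 of 82 members were lower and 1 was higher, against 15.6% and 19.8% of all genes, and the median was -0.21 (0.04 over all genes). The medians by transcript length were -0.33 for members against -0.24 for other coding genes under 500 bases, -0.17 against -0.24 at 500 to 1000, and -0.13 against -0.04 at 1000 to 2000. From 2000 bases on they were -0.67 for 4 members and 0.07 for other coding genes. At 500 to 1000 bases 22.9% of members and 29.2% of the other genes were lower, so in the lengths that hold most members their share was not above that of other genes. Under 500 bases the share was larger among members, with 9 of 14 (64.3%) lower against 23.7% of other genes. The same held from 2000 bases on, with 3 of 4 members lower against 15.3%. These include Rps15a and Rps20, whose annotated principal transcripts have 5130 and 3706 bases but encode only 130 and 119 residues. Under the correction Rps15a went from -0.61 to -0.88 and Rps20 from -0.73 to -0.79. Whether the cells use transcripts of those lengths was not tested. At 1000 to 2000 bases the shares were nearly alike, with 18.8% of members lower. By protein size the medians were -0.45 under 100 residues, -0.23 from 100 to 199 and -0.06 from 200 on, with rho at 0.537. Since short transcripts of other genes also stayed below 0, the parts of protein size and transcript length in this order cannot be told apart here.

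Several genes at the lower end of the order kept their calls under this correction. Rps29 stood at -0.95 (adjusted p = 0.00367), Rps21 at -0.77 (adjusted p = 0.00385), Rplp1 at -0.72 (adjusted p = 0.00561) and Rps14 at -0.70 (adjusted p = 0.00516). Rps15a (-0.88, adjusted p = 0.00305) and Rps20 (-0.79, adjusted p = 0.00397) were called too, below all of these but Rps29. Both have the long annotated transcripts given above and were picked after their values were seen. Rps27 (-0.57), Rpl38 (-0.57), Rpl7l1 (-0.54), Rps27l (-0.45) and Rplp2 (-0.41) were also still called. The calls of Rpl39l (-1.11, adjusted p = 0.13), Rpl24 (-0.53, adjusted p = 0.166), Rpl27a (-0.22), Rpl35 (-0.20), Rpsa (-0.19), Rps9 (-0.19), Rpl41 (-0.19), Rpl23 (-0.02), Rps7 (-0.12), Rps6 (-0.06, adjusted p = 0.623) and Rpl11 (0.02, adjusted p = 0.90) were lost. Rpl4 became the 1 member called higher (0.34, SE 0.10, adjusted p = 0.0487).

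To compare members with each other rather than with the whole library, library sizes were set to the members' summed counts. On that scale the median of members was 0.001 and the median of all genes moved from 0.08 to 0.74. Of the members 10 were lower and 10 higher, against 4.37% and 50.4% of all genes. Relatively lower were Rps29 (log2 fold change -0.74), Rps21 (-0.56), Rps14 (-0.52), Rplp1 (-0.50), Rps27 (-0.35), Rpl38 (-0.34), Rpl9, Rpl37a, Rpl26 and Rps15. Relatively higher were Rpl4 (0.67), Rpl5 (0.44), Rpl7a (0.41), Rpl13a (0.38), Rps19 (0.36), Rpl13, Rplp0 (0.34), Rpl3, Rpl10a and Rpl15. The relatively lower genes encode proteins from 56 residues in Rps29 to 192 in Rpl9, and the relatively higher ones run from 145 residues in Rps19 to 419 in Rpl4.

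The start of the transcript was examined for the pyrimidine run of the TOP motif. RefSeq promoter sequence on GRCm38.p6 was at hand for 63 of the 83 members, and the window ran from 25 bases before the annotated start to 25 bases after it. A run of at least 8 consecutive C or T on the coding strand was found in 33 of 63 members (52.4%) and in 3822 of 17429 other coding genes (21.9%). Runs of A or G of that length, which are the same letters read on the opposite strand, were in 5 members (7.94%) and 23.8% of the others. The annotated start can lie some bases away from the start that the cell uses. A run counted in this window may also lie wholly before the annotated start. Where a gene had several annotated starts, its longest run over them was used. A run in this window is therefore not proof of the motif, and the lack of one does not show that the motif is missing.

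The windows of the 4 lowest and the 4 highest members that hold a run are shown to let the runs be compared between members that fell and members that hardly moved. Capitals mark the longest run of C or T, and coordinates are GRCm38.p6 from RefSeq.
Rpl39l (chr16:10170203-10170252, plus strand): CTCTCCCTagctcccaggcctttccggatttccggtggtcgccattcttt
Rps27 (chr3:90213624-90213673, minus strand): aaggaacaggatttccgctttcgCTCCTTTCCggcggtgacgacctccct
Rpl38 (chr11:114668555-114668604, plus strand): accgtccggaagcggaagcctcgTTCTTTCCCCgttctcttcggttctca
Rps27l (chr9:66946061-66946110, plus strand): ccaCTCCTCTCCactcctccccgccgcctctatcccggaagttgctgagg
Rpl4 (chr9:64173362-64173411, plus strand): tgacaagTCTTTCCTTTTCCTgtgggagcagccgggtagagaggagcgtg
Rpl5 (chr5:107900503-107900552, plus strand): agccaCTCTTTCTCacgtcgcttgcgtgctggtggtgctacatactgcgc
Rpl7a (chr2:26910782-26910831, plus strand): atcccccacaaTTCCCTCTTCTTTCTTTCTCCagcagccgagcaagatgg
Rpl13a (chr7:45128721-45128770, minus strand): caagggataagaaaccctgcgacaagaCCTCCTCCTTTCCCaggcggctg

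The runs of the 4 lowest members span 8, 9, 10 and 9 bases and those of the 4 highest 14, 9, 21 and 14 bases. Rpl38, which encodes a large subunit protein known for its role in the translation of Hox messenger RNAs, was at 73.3, 72.7 and 68.9 CPM against 141 CPM (log2 fold change -0.98, SE 0.08, adjusted p = 0.00126). Rps27 was at 191, 210 and 212 CPM against 406 CPM (-0.99, SE 0.10, adjusted p = 0.00166). In both genes the run starts 2 bases before the annotated start. The runs of Rpl39l, Rps27l, Rpl4 and Rpl5 start 25, 22, 18 and 20 bases before it. They also end before it, so they lie outside the annotated transcript. The run of Rpl7a starts 14 bases before the annotated start and crosses it, and that of Rpl13a starts at base 3 of the transcript. The 33 tested members with a run had a median log2 fold change of -0.59 and 26 were lower. The 29 without one had -0.69 and 25 were lower, beside 18.9% of all genes. This split does not separate members with the TOP motif from members without it. Over the 62 tested members with a sequence, rho between the longest run and the log2 fold change was 0.322.

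Reads of ribosomal protein genes can be placed on their many processed pseudogenes, and the handling of such reads is not given in the sources used here. The table holds 227 named pseudogenes of these genes. Of 162 tested 79 were lower and 1 higher, beside 18.9% and 25.4% of all genes, with a median log2 fold change of -0.66. For 24 members the pseudogenes held more than 10% of the member's own counts. With pseudogene counts added to the parent gene, an alternative chosen after seeing the data, 73 of 82 members were lower (18.9% of all genes in that fit), 0 were higher and no log2 fold change moved by more than 0.172.

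Rps10, a protein of the subunit head, is the extreme case. It had 223 counts over all 4 libraries, and its pseudogenes had 23814. Its own values were 0.915, 0.521 and 1.60 CPM against 1.22 CPM, overlapping with the control (log2 fold change -0.27, SE 0.62, adjusted p = 0.745). Without the second APAP library the value turned to 0.05. With its pseudogenes added, the log2 fold change was -0.44 (adjusted p = 0.00903). Rpl7a likewise passed the test once its pseudogenes were added (-0.30, adjusted p = 0.0381).

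Rps10 is also 1 of 4 members that share at least 20% of their exon bases with another annotated gene on the same strand, with Rpl13a, Rpl24 and Rpl36al. Their mean counts were at most 1059 per library, while every other member that is not a paralog had at least 4492. Rpl24, a protein of the bridge between the subunits, was at 1.27, 1.34 and 1.48 CPM against 2.78 CPM (log2 fold change -1.02, SE 0.26, adjusted p = 0.0243). The Rpl24 call was lost without the second APAP library (adjusted p = 0.0767) and in DESeq2 (adjusted p = 0.0602). With these 4 genes set aside, 69 of 78 members were lower and 0 higher.

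Fau and Rack1 encode ribosomal components under other names. Fau, the precursor of a small subunit protein, was at 354, 385 and 393 CPM against 720 CPM (log2 fold change -0.93, SE 0.10, adjusted p = 0.00199). Rack1, the scaffold on the small subunit head, was at 685, 732 and 694 CPM against 1049 CPM (-0.58, SE 0.10, adjusted p = 0.00721). With the correction from other coding genes Fau stood at -0.51 (adjusted p = 0.0155) and Rack1 was not called (-0.25, adjusted p = 0.0999). Both uncorrected fold changes lie inside the range of the members.

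The mitochondrial ribosome has its own proteins, encoded by other nuclear genes. Of 77 such genes 55 were lower and 0 higher, against 18.9% and 25.4% of all genes. Their median log2 fold change was -0.67, beside -0.64 for the cytosolic set. With the correction from other coding genes 35 were lower and 2 higher, against 15.6% and 19.8% of all genes. The median was then -0.41, beside -0.21 for the cytosolic set. The medians of the 2 ribosomes were thus alike as counted and apart after this correction, a difference that was not tested.

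The translation machinery around the ribosome was described in the same way, and its counts are to be read against the 18.9% of all genes called lower and 25.4% called higher. Of 11 elongation and termination factors 5 were lower and 1 higher (median -0.43). Eef1d, a subunit of the exchange factor for elongation factor 1, fell (log2 fold change -0.86), as did Eef1e1 (-0.92), while Eef2k, the kinase that inactivates elongation factor 2, rose from 23.1 CPM to 35.5, 37.8 and 41.2 CPM (0.73, SE 0.13, adjusted p = 0.00726). Of 34 initiation factors 16 were lower and 5 higher (median -0.28), with Eif1 at -1.09, Eif3g at -0.99 and Eif6 at -0.86 as the called genes with the smallest p. Among 24 other genes whose messenger RNAs carry the TOP motif 6 were lower (25%) and 4 higher (16.7%), near the shares of all genes (median -0.19). The lower ones include Eef1d, Btf3 (-0.60) and the snoRNA host Snhg8 (-1.11), and the higher ones, picked after their values were seen, were Vim (1.84), Eif4b (0.55), Pabpc1 (0.49) and Npm1 (0.32). With the correction from other coding genes 2 were lower and 5 higher, beside 15.6% and 19.8% of all genes, and Btf3 (-0.17) was not called. Of the elongation and termination factors 4 were then lower and 1 higher, and of the initiation factors 11 were lower and 3 higher. Eef1a1, the most abundant gene named here and also picked after its values were seen, was at 5706, 5911 and 5794 CPM against 6258 CPM (-0.11, adjusted p = 0.507).

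Of 41 genes of ribosome biogenesis 19 were lower (46.3%) and 1 higher (2.44%), beside 18.9% and 25.4% of all genes (median -0.37). Nop10, a component of the particles that pseudouridylate ribosomal RNA, had a more negative value than any member and fell from 71.4 CPM to 21.5, 17.6 and 19.0 CPM (log2 fold change -1.88, SE 0.13, adjusted p = 0.001). Fbl, the methyltransferase of the nucleolus, fell by 1.02 on the log2 scale and Ltv1, which acts in the export of the small subunit, by 0.91. In the list of chaperones and quality control factors of ribosomal proteins 4 of 15 were lower (26.7%) and 6 higher (40%), with a median of 0.03. There Huwe1, a large ubiquitin ligase that targets unassembled ribosomal proteins, rose by 1.41 on the log2 scale, while Aamp (-0.73) and Trp53 (-0.63) fell. With the trend of all genes taken off these values were 0.50, -0.38 and -0.34, and with the correction from other coding genes 0.08 (adjusted p = 0.532), -0.58 and -0.43, so the Huwe1 call was lost. The values of Fbl were -0.59 and -0.66 under the same corrections. With the correction from other coding genes, 20 biogenesis genes were lower and 2 higher. Of the chaperones and quality control factors 5 were then lower and 4 higher, beside 15.6% and 19.8% of all genes.

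Of 21 genes that control TOP messenger RNAs 6 were lower (28.6%), 8 higher (38.1%) and 7 not called (median 0.09), beside 18.9% and 25.4% of all genes. Mtor, the kinase itself, rose from 36.6 CPM to 67.4, 67.1 and 68.8 CPM (log2 fold change 0.89, SE 0.09, adjusted p = 0.00173), and its inhibitor Tsc1 rose from 23.7 CPM to 49.9, 44.7 and 46.9 CPM (0.996, SE 0.11, adjusted p = 0.00212). Eif4ebp1, the translation repressor that mTORC1 phosphorylates, fell from 108 CPM to 50.1, 55.9 and 55.9 CPM (-1.001, SE 0.10, adjusted p = 0.00167). Larp1 (0.10, adjusted p = 0.449) and Myc, a transcription factor that drives ribosomal genes (-0.16, adjusted p = 0.58), were not called. Rps6kb1, the S6 kinase, rose (0.47, adjusted p = 0.0197). These counts depend on the correction. With the trend of all genes taken off 3 were lower and 4 higher, beside 17.4% and 21.3% of all genes, and Rps6kb1 stood at -0.09. With the correction from other coding genes 2 were lower and 0 higher, beside 15.6% and 19.8% of all genes. The lower ones were Eif4ebp1 (-0.83, adjusted p = 0.00413) and Larp1 (-0.45, adjusted p = 0.0185). The calls of Mtor (0.08, adjusted p = 0.493), Tsc1 (0.33, adjusted p = 0.0579) and Rps6kb1 (0.19, adjusted p = 0.222) were lost.

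**Figure D5:**
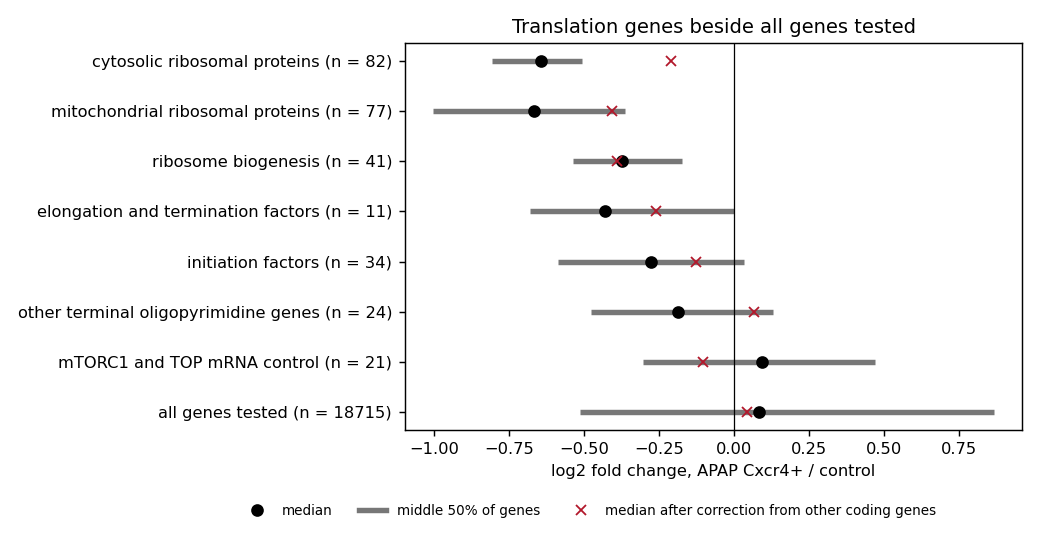
Log2 fold change of 7 gene lists and of all 18715 genes tested (horizontal axis), with the median as a circle, the middle 50% of genes as a bar and the median after the length and GC correction from other coding genes as a cross. The bars of cytosolic ribosomal proteins (median -0.64), mitochondrial ribosomal proteins (median -0.67) and ribosome biogenesis (median -0.37) lie wholly below 0, and the cross of the cytosolic set, at -0.21, lies to the right of its bar.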

How the data were processed

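The authors deposited 1 table of raw, whole-number read counts per Ensembl gene. HISAT2, Subread and build mm39 are named, per the submitters' processing notes. Not given in the sources used here are the tools' versions and roles, the annotation, whether strand was used, and how reads matching several genes were counted. APAP libraries are numbered 1 to 3 as their columns stand, since the column names hold no number.

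Symbols came from gene tables and matched 28926 of 29247 IDs. Protein and transcript lengths, biotypes and overlaps came from GENCODE M21 (GRCm38), another build than the counts, so they describe the genes and not the reads. For each gene the principal transcript was used.

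The counts were fitted with edgeR 4.0.16 in R 4.3.3: TMM factors, filterByExpr (minimum count 10, minimum total 15), and the quasi-likelihood F test without covariates over all 18715 genes tested, called at a Benjamini-Hochberg adjusted p under 0.05. The common biological coefficient of variation was 0.162. Alternatives used DESeq2 1.42.0, limma 3.58.1 and, for the smooth trend of fold changes over transcript length and GC content (18644 genes with a value), mgcv 1.9.3; the trend was subtracted as an offset before the fit. It was fitted on all genes and, as an addition after seeing the data, on the coding genes outside the members and applied to coding genes. The edgeR fit and the correction fitted on all genes were checked on simulated data, with a simulated trend over length alone. The correction fitted on other coding genes was not checked in this way. Genes named with values are the 6 lowest and 6 highest members by log2 fold change, the 3 nearest the median, the 5 most abundant, every paralog, the stalk, Rpsa, Rps6, Rpl5 and Rpl11, those below the count filter, up to 3 called genes per pathway list with the smallest p, and a few regulators. The sequence windows are those of the 4 lowest and 4 highest members with a run. The members, lists and rules were chosen with earlier results of these data known. A gene of these lists is not reported here.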

Additional observations from a re-analysis of the deposited data

How the results depend on the processing

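The number of members lower lay between 54 and 75 (70 as reported) under other size factors, count filters and tests, without mitochondrially encoded genes, and with the length and GC correction fitted on all genes, and at 58 to 77 when 1 APAP library was left out. It dropped to 30 with glmTreat, to 26 with 1 higher under the correction fitted on other coding genes, which was chosen after seeing the data, and to 10, with 10 higher, when libraries were scaled to the members' sum. The median log2 fold change was -0.61 with no count filter, -0.55 with the first correction, -0.21 with the second and 0.0013 on the members' own scale. That scale by construction turned genes that had moved less than the other members: Rpl5 to 0.44, Rpl7a to 0.41, Rpl13a to 0.38, Rps10 to 0.38, Rps19 to 0.36, Rplp0 to 0.34, Rpsa to 0.22, Rpl22l1 to 0.20, Rpl11 to 0.18, Rps6 to 0.085, Rpl7l1 to 0.069, Rpl35 to 0.0068 and Rpl41 to 0.0013. With the first correction Rps19 stood at 0.13, Rps10 at 0.091, Rpl13a at 0.068 and Rpl7a at 0.029. With the second Rpl7a stood at 0.24, Rps19 at 0.17, Rpl13a at 0.17, Rps10 at 0.15, Rpl22l1 at 0.13, Rplp0 at 0.041 and Rpl11 at 0.017. Without 1 APAP library Rps10 ranged from -0.75 to 0.047, and the share of counts from 73.2% to 74.5% of the control. No paired analysis was possible because the control has 1 library and the columns carry no replicate numbers. The single control library limits every comparison, and low counts limit Rps10, Rpl24, Rpl36al, Rpl39l and Rpl3l.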
